A study of Mus musculus with 6 samples.

Results

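The genes described here are 51 genes of DNA replication and S phase, chosen by name from 57180 rows of the count table for their roles in origin licensing, the replication fork, nucleotide supply and E2F control. All 51 had a row, and all 51 were among the 17635 genes that passed the filter on low counts. RNA sequencing was done on murine 10T1/2 cells, a mesenchymal fibroblast line, and every sample had been stimulated with TGF-β at 5 ng/mL to give cells that resemble cancer-associated fibroblasts. RNA was depleted of ribosomal RNA, and gene counts are given as CPM, the counts scaled to a common library size. In 3 control samples these activated cells were given PBS. In the other 3 they were given photodynamic therapy (PDT), in which extracellular vesicles directed at midkine and loaded with the dye chlorin e6 (Ce6@D4-EV) were followed by light. The cells are 1 established line, no sample lacked TGF-β, and the vesicles, the dye and the light were given together, so none of these can be told apart.

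A cell replicates its DNA in S phase. In G1, the origin recognition complex with Cdc6 and Cdt1 loads the MCM helicase onto origins, which licenses them. In S phase, Cdc45 and GINS join the helicase, polymerases copy the strands behind it, and a sliding clamp, its loader and the single-strand binding protein RPA serve the fork. Many of these genes are transcribed under E2F factors, which the retinoblastoma protein holds in check until G1 cyclins and their kinases release them, so their transcripts are commonly used to follow proliferation. In bulk RNA a smaller share of cells in S phase and less RNA per cell cannot be told apart.

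The libraries held 83195529 to 99527847 counts. The groups separated on the first principal component, with PDT replicate 3 nearer to PBS (a score of 23.7, against 39.9 and 38.9 in the other PDT libraries and -35.9 to -32.9 in PBS). Mitochondrially encoded genes took 2.24% to 2.57% of counts. Of 14 fibroblast and myofibroblast markers, Col1a1 and Vim were high (6025 ± 178 and 6019 ± 45.1 CPM in PBS, SD, n = 3), Thy1, Dcn and Lum, which mark many fibroblasts, were at means of 0.30 to 1.31 CPM, and Fap had 0 counts in all 6, which allows up to 3 counts a library. The summed level of the 14 was 28895 to 30325 CPM in PBS and 17367 to 18261 CPM in PDT, and 9 of the 13 tested were lower and 1 higher. The 8 leukocyte markers summed to 1.34 to 1.44 CPM in PBS and 1.98 to 2.42 CPM in PDT. The 6 epithelial markers summed to 0.60 to 1.31 CPM in PBS and 0.42 to 0.57 CPM in PDT. For the 5 endothelial markers the sums were 0.76 to 1.52 and 0.63 to 0.91 CPM. Of these 3 lists, Ptprc, Adgre1, Epcam and Kdr were at 0 in every library, but other markers had counts. Those that passed the filter were 3 leukocyte markers, 1 of them higher in PDT, 2 endothelial markers, 1 of them lower, and 1 epithelial marker, not called.

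Most transcripts of the replication machinery differed little between PDT and PBS. In edgeR's quasi-likelihood test with Benjamini-Hochberg adjustment over all tested genes, 15 of the 51 genes (29.4%) changed, 9 higher and 6 lower in PDT, against 36.1% of all tested genes, of which 18.7% were higher and 17.5% lower. Among the 10381 tested genes within the members' range of levels, 49.6% were called, 27.1% higher and 22.5% lower. The members that rose were Mcm2, Mcm3, Mcm5, Cdt1, Mcm10, Pold2, Chaf1a, Chaf1b and E2f1, and those that fell were Cdc6, Pola1, Pole, Rfc1, E2f7 and E2f8. All of these changes were small: the largest was the 1.41-fold decrease of E2f7, and the median fold of the 15 was 1.17. None of the 51 reached 1.5-fold, which 7.04% of tested genes in the same range of levels did. The median log2 fold change over the members was 0.04, beside 0.01 over all tested genes, and the median of its absolute size was 0.11, beside 0.17 over genes in the same range of levels.

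The count of calls in each direction differed between alternatives. With library size as the only scaling, 19 members were called higher and 4 lower, and 63% of all calls were higher in place of 51.7%. Of all tested genes 24.3% were then higher and 14.3% lower. When the fit had offsets for GC content and transcript length, 6 were called higher and 11 lower, beside 17.8% and 15.7% of all tested genes. With a stricter filter on low counts 9 were called higher and 11 lower. These are 39.2% of the members, beside 48.0% of all tested genes (23.4% higher and 24.6% lower). Without PDT replicate 1, 5 were called higher and 5 lower, beside 12.8% and 13.5% of all tested genes. Mcm2, Cdt1, Pold2, E2f1, Cdc6, Pole and E2f7 were called in the same direction under all 15 alternatives, and each of the other 8 lost its call in at least 1.

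The 36 members that were not called had log2 fold changes of -0.15 to 0.32. E2f2, the least abundant member, had the widest 95% interval (0.03 to 0.60). Without it, the intervals of the other 35 ran from -0.27 (Orc6) to 0.30 (Rfc5). Every PDT library was above every PBS library for 15 of the 51 members (29.4%, against 25.6% of all tested genes) and below for 11 (21.6%, against 23.4%), and for 25 the groups overlapped.

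**Figure D1:**
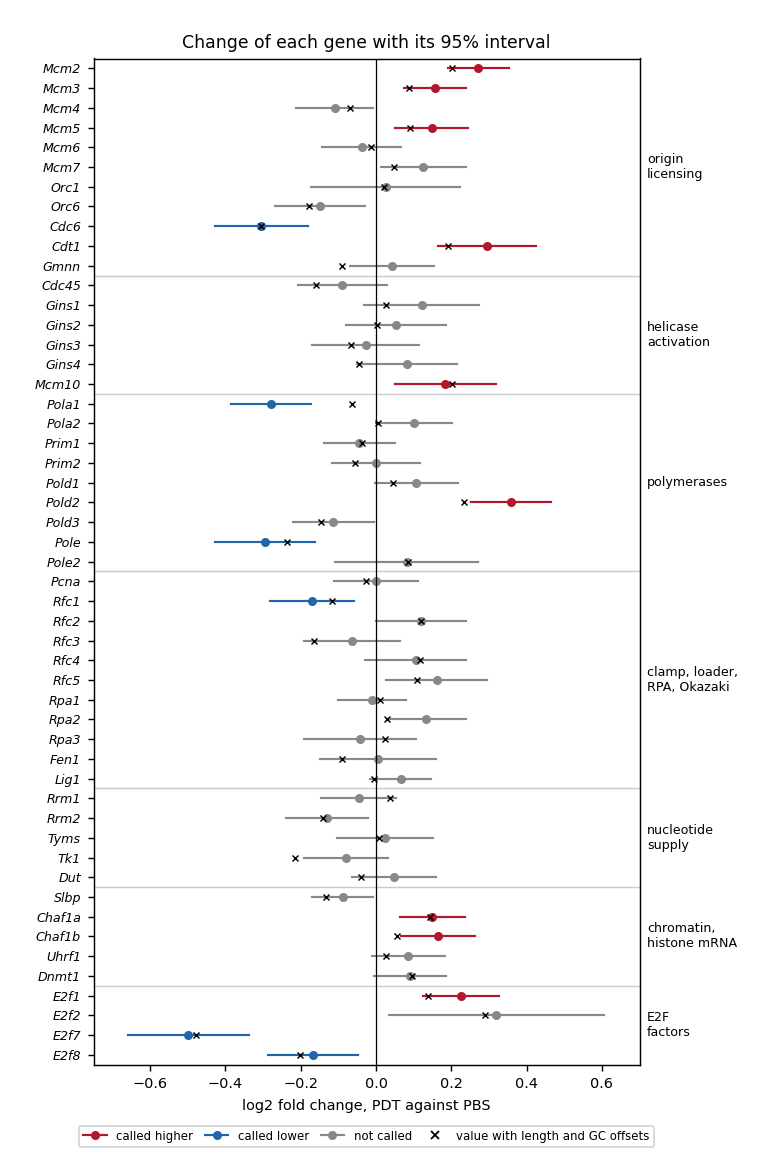
Log2 fold change, PDT against PBS, of each of the 51 genes (points) with its 95% interval (lines), grouped by role, with crosses for the value with length and GC offsets. The points lie between -0.50 (E2f7) and 0.36 (Pold2), and 36 of the 51 are grey because they were not called.

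The summed level of the 51 genes did not separate the groups. It was 4154, 4112 and 4317 CPM in PBS replicates 1 to 3 and 4401, 4233 and 4170 CPM in PDT. In PBS replicate 3, 42 of the 51 genes were above their PBS mean, against 17 and 13 in PBS replicates 1 and 2. The median member deviated from its PBS mean by 0.10, 0.03 and 0.004 (log2) in PDT replicates 1, 2 and 3, so PDT replicate 1 was the highest and PDT replicate 3 the lowest of its group.

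**Figure D2:**
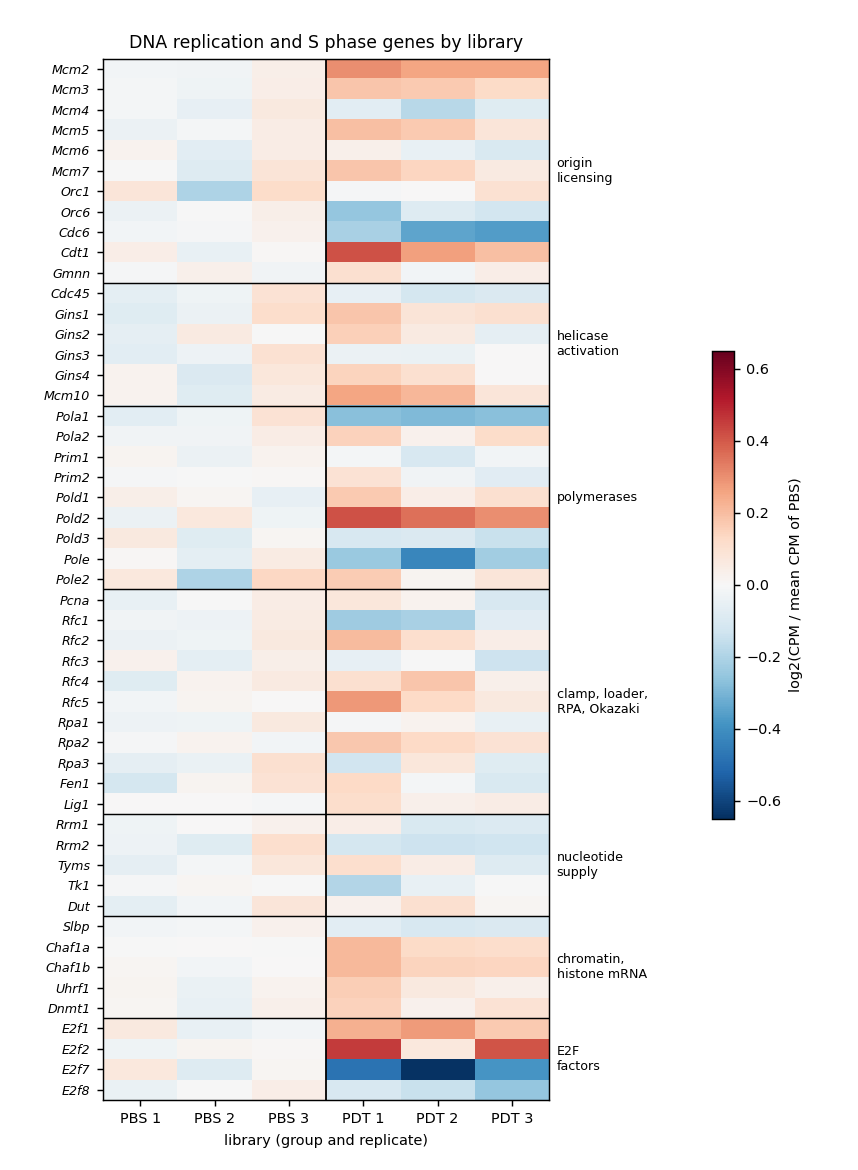
Log2 ratio of each gene's CPM to its mean in PBS (colour) in each of the 6 libraries (columns), with genes in rows by role. PBS replicate 3 is slightly red for most genes (42 of 51 above the PBS mean), while in PDT rows of both colours alternate within each role.

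Promoters of these genes often carried a word of the E2F core, and they did so in the genes that rose, fell or were not called. RefSeq promoters (GRCm38.p6, 250 bases before to 50 after the start) were matched by symbol for 43 of the 51 genes, as 52 promoters, and searched on both strands for TTGGCGC or TTCCCGC or TTCGCGC or TTGCCGC. At least 1 of these words was in 32 of the 52 (61.5%), against 9.57% of all 32851 promoters and 15.9% of the 14039 of tested genes. It was in 5 of 10 promoters of members that rose, 5 of 5 of those that fell and 22 of 37 of those not called. Some genes have several promoters, and by gene the counts were 5 of 9, 5 of 5 and 19 of 29. Pole, which also fell, had no matched promoter. The CCAAT box was in 61.5% of member promoters, 37.4% of all and 38.1% of those of tested genes. For the word TTTGAA of the CHR element these shares were 15.4%, 17.9% and 12.7%. These matches describe letters only. For 39 of the 52 promoters the last 25 bases were found in an annotated transcript of the gene. Which start these cells use was not measured, so some matched promoters may not be the one in use. E2f1, counted among the genes that rose, had no word in its matched promoter. The promoters below show genes of each outcome in the direction of transcription, with the E2F words in capitals: Cdt1 and Mcm3 rose, Cdc6 and E2f7 fell, and Mcm6 was not called. Overlapping words on opposite strands, as in Mcm3 and Mcm6, form one longer run of capitals.
Cdt1 promoter, GRCm38.p6 chr8:122567765-122568064, plus strand: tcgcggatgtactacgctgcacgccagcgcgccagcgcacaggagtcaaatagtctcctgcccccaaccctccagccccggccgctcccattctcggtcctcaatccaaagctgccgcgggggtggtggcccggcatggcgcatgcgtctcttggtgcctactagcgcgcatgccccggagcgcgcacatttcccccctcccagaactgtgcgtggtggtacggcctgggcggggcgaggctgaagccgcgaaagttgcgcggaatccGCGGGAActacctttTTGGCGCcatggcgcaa
Mcm3 promoter, GRCm38.p6 chr1:20820263-20820562, minus strand: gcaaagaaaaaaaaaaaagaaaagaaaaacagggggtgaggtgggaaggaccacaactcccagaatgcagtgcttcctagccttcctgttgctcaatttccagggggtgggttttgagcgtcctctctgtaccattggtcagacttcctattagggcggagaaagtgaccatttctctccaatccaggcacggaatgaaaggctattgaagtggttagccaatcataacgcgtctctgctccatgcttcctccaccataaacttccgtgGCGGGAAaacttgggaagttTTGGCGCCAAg
Cdc6 promoter, GRCm38.p6 chr11:98907901-98908200, plus strand: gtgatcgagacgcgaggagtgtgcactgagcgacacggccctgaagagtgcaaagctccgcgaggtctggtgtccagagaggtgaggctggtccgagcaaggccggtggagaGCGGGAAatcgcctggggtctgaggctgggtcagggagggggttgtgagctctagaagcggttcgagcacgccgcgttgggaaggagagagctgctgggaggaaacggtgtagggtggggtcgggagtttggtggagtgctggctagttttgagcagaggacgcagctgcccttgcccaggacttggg
E2f7 promoter, GRCm38.p6 chr10:110745189-110745488, plus strand: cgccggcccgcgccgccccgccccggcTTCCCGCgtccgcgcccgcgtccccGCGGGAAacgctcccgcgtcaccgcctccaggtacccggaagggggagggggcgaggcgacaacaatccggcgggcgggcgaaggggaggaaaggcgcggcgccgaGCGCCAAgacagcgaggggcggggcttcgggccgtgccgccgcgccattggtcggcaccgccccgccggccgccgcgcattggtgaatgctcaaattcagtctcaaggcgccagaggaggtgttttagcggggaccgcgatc
Mcm6 promoter, GRCm38.p6 chr1:128359656-128359955, minus strand: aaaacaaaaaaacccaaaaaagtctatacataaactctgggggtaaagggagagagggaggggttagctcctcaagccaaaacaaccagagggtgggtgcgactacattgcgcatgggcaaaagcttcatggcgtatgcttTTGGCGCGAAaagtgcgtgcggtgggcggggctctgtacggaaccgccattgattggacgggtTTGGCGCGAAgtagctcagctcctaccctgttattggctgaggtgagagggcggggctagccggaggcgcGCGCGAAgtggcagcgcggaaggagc
The E2F words begin 18 and 33 bases after the start in Cdt1 and 138 bases before it in Cdc6. In E2f7 they begin 223, 198 and 92 bases before the start. With overlapping words counted separately, Mcm6, whose level did not pass the test, holds 5 such words, the most among the member promoters. Pola1, which fell, holds 4 that do not overlap, more than the separate runs in Mcm6.

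Origin licensing genes had 4 members higher and 1 lower of 11 (36.4% and 9.1%), with a median log2 fold change of 0.04. This and the counts by role below stand beside 18.7% higher and 17.5% lower over all tested genes. Among tested genes in the members' range of levels the shares were 27.1% and 22.5%. The loading factors moved apart: Cdt1, which brings MCM to the origin, rose, and Cdc6, its loading partner, fell. Cdt1 was at 48.9, 45.9 and 47.7 CPM in PBS and at 63.2, 57.2 and 54.5 CPM in PDT. Every PDT library lay above every PBS library, with PDT replicate 1 the highest (log2 fold change 0.29 ± 0.06 SE, adjusted p = 0.00331). Cdc6 was at 30.8, 31.0 and 31.8 CPM in PBS and at 26.9, 24.6 and 24.3 CPM in PDT, with no overlap (-0.30 ± 0.06, adjusted p = 0.00216). Geminin (Gmnn), the protein that binds and inhibits Cdt1, was at 31.3, 32.2 and 31.0 CPM in PBS and 33.8, 31.1 and 32.4 CPM in PDT. Its groups overlapped, and its log2 fold change was 0.04 with a 95% interval of -0.07 to 0.16. The origin recognition subunits Orc1 and Orc6 were not called (0.03 ± 0.09 and -0.15 ± 0.05). Orc6 lay lower in all PDT libraries and passed the test in 8 of the 15 alternatives, with length and GC offsets at adjusted p = 0.0172.

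Mcm2 to Mcm7 encode the subunits of the helicase ring. Mcm2 was at 137, 137 and 143 CPM in PBS and 171, 166 and 166 CPM in PDT, a clear separation (0.27 ± 0.04, adjusted p = 0.000379). Mcm3 rose by 0.16 ± 0.04 from 167 ± 4.26 to 187 ± 3.82 CPM (SD, n = 3, adjusted p = 0.00816), although its call ended with length and GC offsets (0.09, adjusted p = 0.0696). Mcm5 was at 149, 152 and 159 CPM in PBS and 175, 173 and 162 CPM in PDT, where PDT replicate 3 lay just above PBS replicate 3. Its rise (0.15 ± 0.04, adjusted p = 0.0231) ended without PBS replicate 1 or 2, without PDT replicate 1 or 2 and with the offsets. Mcm7, Mcm6 and Mcm4 were not called (0.13 ± 0.05, -0.04 ± 0.05 and -0.11 ± 0.05). Mcm6 was at 242, 227 and 246 CPM in PBS and 244, 230.4 and 222 CPM in PDT, which overlap.

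The spread of levels within a complex depended on which length was used. As CPM per kb of the longest coding transcript the 6 ring subunits ran from 41.2 (Mcm2) to 55.2 (Mcm3) in PBS, a 1.34-fold range, and from 46.6 to 61.6 in PDT, a 1.32-fold range. On the same scale in PBS the 4 GINS genes spanned 3.62-fold (7.57 for Gins3 to 27.4 for Gins4), the 5 clamp loader genes 2.34-fold, the 3 RPA genes 3.26-fold and the pair of polymerase epsilon genes 1.75-fold. Per kb of coding sequence in PBS the ring subunits spanned 1.95-fold (51.2 for Mcm2 to 100.1 for Mcm6), more than the clamp loader genes (1.77-fold) and the polymerase epsilon genes (1.81-fold). On that scale the GINS genes spanned 3.13-fold, from 28.5 (Gins1) to 89.2 (Gins2), and overlapped the ring subunits, and the RPA genes spanned 3.22-fold. Over all 51 genes the level per length in PBS ran from 0.76 (E2f2) to 172 (Pcna) CPM per kb. Which transcript each gene uses was not measured, so these levels depend on the annotated length.

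**Figure D3:**
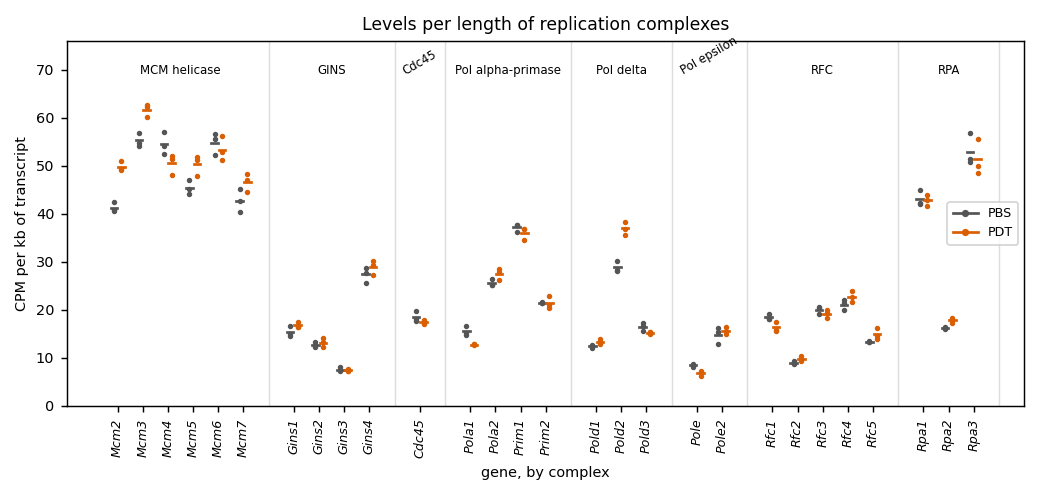
CPM per kb of the longest coding transcript for the subunits of replication complexes, with points for single libraries and bars for the group means (PBS grey, PDT orange). On this scale the group means of the MCM subunits lie between 41.2 and 61.6 and those of the GINS genes between 7.42 and 29.0, whereas per coding length in PBS they overlap (51.2 to 100.1 and 28.5 to 89.2).

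Of the 6 genes of helicase activation 1 rose and none fell. Mcm10, which helps the helicase to start, was at 35.7, 33.2 and 36.4 CPM in PBS and 41.8, 40.8 and 37.0 CPM in PDT. The groups did not overlap, but PDT replicate 3 lay just above PBS replicate 3 (0.18 ± 0.06, adjusted p = 0.0379), and the call ended in 6 of the 15 alternatives, among them leaving out PBS replicate 1 or 2 or PDT replicate 1 or 2. Cdc45, a helicase cofactor, was at 38.0, 38.9 and 42.3 CPM in PBS and 38.2, 36.7 and 37.1 CPM in PDT. These overlap, with a log2 fold change of -0.09 ± 0.05. The GINS genes Gins1 to Gins4 were at 0.12, 0.05, -0.03 and 0.08, all within overlapping groups.

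Of the 9 polymerase genes 1 was higher and 2 lower (11.1% and 22.2%). Pold2, the accessory subunit of polymerase delta, had the largest rise of all 51 genes. It was at 46.2, 49.6 and 46.5 CPM in PBS and 63.1, 60.7 and 58.5 CPM in PDT, with every PDT library above every PBS library (0.36 ± 0.05, adjusted p = 0.000346). The catalytic subunit gene Pold1 and the subunit gene Pold3 were not called (0.11 ± 0.05 and -0.11 ± 0.05). Pole, the catalytic subunit of polymerase epsilon, fell from 60.5, 57.7 and 62.5 CPM to 50.8, 44.9 and 51.5 CPM without overlap (-0.30 ± 0.06, adjusted p = 0.00359), and its partner Pole2 was at 0.08 ± 0.08. Pola1, the catalytic subunit of polymerase alpha, fell from 78.9, 81.2 and 88.4 CPM to 68.6, 67.7 and 68.5 CPM. Its PDT libraries were close to each other and below all of PBS (-0.28 ± 0.05, adjusted p = 0.00142). With length and GC offsets its log2 fold change was -0.06 (adjusted p = 0.332), and its transcript has the second lowest GC content of the members, 41.5%. Pola2 and the primase genes Prim1 and Prim2 were not called (0.10, -0.04 and 0.0002).

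Genes of the clamp, its loader, RPA and Okazaki fragment joining were the least changed large group, with 0 of 11 higher and 1 lower. Pcna, the sliding clamp and a common marker of proliferation, was at 253, 261 and 271 CPM in PBS and 276, 265 and 243 CPM in PDT. PDT replicate 3 was its lowest and PDT replicate 1 its highest library, and the log2 fold change was -0.0006 with an interval of -0.11 to 0.11. Rfc1, the large subunit of the clamp loader, fell from 86.1, 85.5 and 90.6 CPM to 74.5, 75.5 and 82.99 CPM (-0.17 ± 0.05, adjusted p = 0.0231). This call ended in 6 of the 15 alternatives, among them library size only, the offsets and leaving out PBS replicate 3 or PDT replicate 1 or 2. Rfc2 to Rfc5 were between -0.06 and 0.16 and were not called. The RPA genes Rpa1, Rpa2 and Rpa3 were at -0.01, 0.13 and -0.04. The flap nuclease gene Fen1 and the ligase gene Lig1 were at 0.01 and 0.07.

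None of the 5 genes of nucleotide supply was called. Rrm2, the regulated subunit of ribonucleotide reductase, was at 131, 127 and 145 CPM in PBS and 124, 122 and 123 CPM in PDT. It was lower in all PDT libraries, by less than the test required (-0.13 ± 0.05, adjusted p = 0.0640), and it passed in 6 of the 15 alternatives. Its partner Rrm1 was at -0.05 ± 0.04. Thymidylate synthase (Tyms) was at 61.3, 63.4 and 67.3 CPM in PBS and 69.1, 66.1 and 60.4 CPM in PDT, which overlap (0.03 ± 0.06). Thymidine kinase 1 (Tk1) was at -0.08 ± 0.05, and at -0.22 with length and GC offsets (adjusted p = 0.0145), and Dut, which removes dUTP, was at 0.05 ± 0.05.

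Of the chromatin genes, both large subunits of the histone chaperone CAF-1 rose. Chaf1a was at 110.3, 110.5 and 110.2 CPM in PBS and at 127.4, 120.3 and 119.2 CPM in PDT, with PDT replicate 1 the highest (0.15 ± 0.04, adjusted p = 0.0129), and without PDT replicate 1 its call ended (adjusted p = 0.0850). Chaf1b was at 37.9, 37.3 and 37.8 CPM in PBS and 43.6, 41.6 and 41.5 CPM in PDT (0.17 ± 0.04, adjusted p = 0.0156), and its call ended with the offsets (0.06, adjusted p = 0.342) and without PBS replicate 2 or PDT replicate 1. Uhrf1, which recognises hemimethylated DNA, and Dnmt1, the maintenance methyltransferase it recruits, were not called (0.09 ± 0.04 for each). Uhrf1 was at 202, 193 and 202 CPM in PBS and 222, 208 and 203 CPM in PDT, where PDT replicate 3 was just above the highest PBS library. Dnmt1 was at 199, 190.4 and 202 CPM in PBS and 218, 200.5 and 210.3 CPM in PDT, which overlap. Slbp, which binds the stem-loop of histone mRNA, was at 74.1, 74.2 and 76.5 CPM in PBS and 71.5, 69.7 and 70.2 CPM in PDT. These did not overlap, but the difference of -0.09 ± 0.04 missed the threshold (adjusted p = 0.0865).

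Among the E2F factors, the activator gene E2f1 rose and the repressor genes E2f7 and E2f8 fell. E2f1 was at 69.2, 64.1 and 65.5 CPM in PBS and 77.7, 80.4 and 74.5 CPM in PDT, with no overlap (0.23 ± 0.05, adjusted p = 0.00375). E2f7 was at 37.0, 33.3 and 35.5 CPM in PBS and 25.3, 22.6 and 27.0 CPM in PDT. All PDT libraries were below all PBS libraries (-0.50 ± 0.07, adjusted p = 0.000585), the largest change of the 51. E2f8 was at 36.5, 37.5 and 38.8 CPM in PBS and 35.0, 34.0 and 31.6 CPM in PDT, a smaller separation (-0.17 ± 0.05, adjusted p = 0.0340). The E2f8 call ended in 8 of the 15 alternatives, among them library size only and leaving out any PBS library or PDT replicate 2 or 3. E2f2, another activator, was at 3.52, 3.62 and 3.60 CPM in PBS and 4.90, 3.75 and 4.75 CPM in PDT, above PBS in each but not called (0.32 ± 0.13, adjusted p = 0.0790).

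The log2 fold change tended to rise with GC content across the 51 genes, though not in every gene that fell. The 9 that rose had transcripts of 48.7% to 58.8% GC (median 55.2%) and 1646 to 5535 nt (median 3031). The 6 that fell had 41.5% to 50.6% GC (median 49.6%) and 3691 to 7163 nt (median 5048.5). Over all members the medians were 49.8% and 2962 nt. Among those that fell, Pola1 and Rfc1 were at 41.5% and 46.5% GC, and Cdc6, E2f7, E2f8 and Pole at 49.4% to 50.6%. With length and GC offsets these last were still lower (-0.30, -0.48, -0.20 and -0.24), and Pola1 and Rfc1 were not called (-0.06 and -0.12). Of the 26 genes at or above the members' median GC content 8 were higher and 3 lower, with a median log2 fold change of 0.10. Of the 25 below it 1 was higher and 3 lower, with a median of -0.04. Over all tested genes 18.7% were higher and 17.5% lower, and these shares were not split by GC content. For tested genes with an average log2 CPM of 2 or more, bin medians also climbed with GC content, from -0.24 at 39.9% to 0.13 at 59.5%. Spearman's rho between log2 fold change and GC content was 0.58 over the 51 members and 0.38 over the 9969 tested genes in their range of levels with a known GC content, and with transcript length it was -0.10 and -0.32. These are correlations across genes that share the same 6 libraries and are not independent. With offsets for length and GC content, Mcm2, Cdt1, Mcm10, Pold2, Chaf1a and E2f1 were higher, and Orc6, Cdc6, Cdc45, Pold3, Pole, Rfc3, Rrm2, Tk1, Slbp, E2f7 and E2f8 were lower. The median of the members was then 0.005. These offsets were fitted on the 16356 tested genes with known length and GC content. A fit of the same genes without offsets called 17 members, with a median of 0.04, so calls also depended on the set of genes. The offsets also remove any effect of treatment that follows GC content, which cannot be told apart from a technical one.

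**Figure D4:**
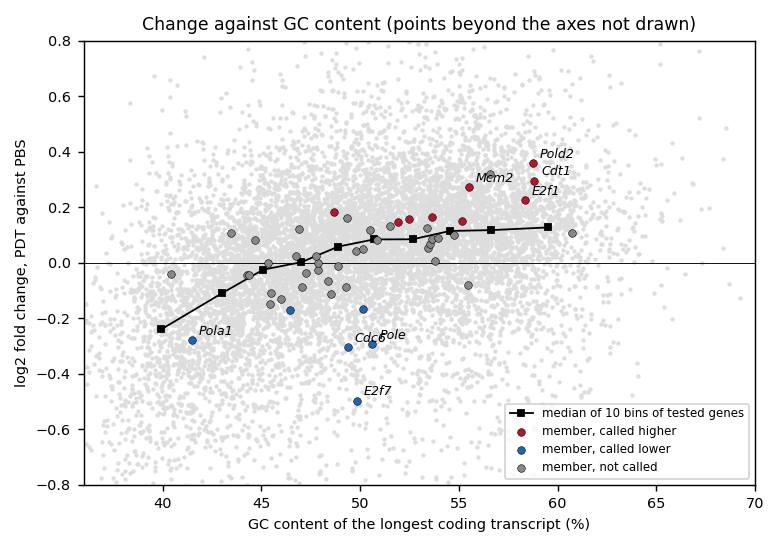
Log2 fold change, PDT against PBS, against the GC content of the longest coding transcript, for the 51 members (coloured) and for other tested genes whose average log2 CPM is 2 or more (light grey, some beyond the axes), with medians in 10 bins of equal size (black squares). The bin medians climb from -0.24 at 39.9% GC to 0.13 at 59.5%, and Pold2, Cdt1, Mcm2 and E2f1 lie at the GC-rich end while Pola1 lies at the GC-poor end. Cdc6, E2f7 and Pole fell at 49.4% to 50.6% GC, between bins with medians of 0.06 (48.9%) and 0.08 (50.7%).

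Other genes of the same processes were listed by function, and 109 of 110 were tested: 25 were higher and 30 lower. Of 33 other origin and fork genes 0 were higher and 12 lower, with a median log2 fold change of -0.11 (3 higher, 9 lower and -0.06 with length and GC offsets). The clamp unloader gene Atad5 fell by 0.60 ± 0.08 (adjusted p = 0.000423), the polymerase delta subunit gene Pold4 by 0.36 ± 0.06 and the origin recognition gene Orc4 by 0.27 ± 0.05. Of 29 other genes of nucleotide synthesis 15 were higher and 2 lower, with a median of 0.15 (14 higher, 5 lower and 0.14 with offsets). Adsl, a purine synthesis enzyme, rose by 0.38 ± 0.04 (adjusted p = 9.28e-05) and the folate enzyme gene Shmt1 by 0.61 ± 0.07, while the deoxycytidine kinase gene Dck fell by 0.36 ± 0.05. The shares called in these lists and those that follow stand beside 18.7% higher and 17.5% lower over all tested genes. In the members' range of levels the shares were 27.1% and 22.5%, and over the 109 related genes 22.9% and 27.5%.

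Of 30 tested genes of G1/S control and E2F partners 7 were higher and 8 lower, with a median of -0.02. Rb1, the retinoblastoma protein gene, fell from 60.7, 61.8 and 62.5 CPM to 38.0, 38.6 and 39.6 CPM (-0.67 ± 0.04, adjusted p = 2.27e-06). The D cyclin genes Ccnd1 and Ccnd2 rose by 0.47 ± 0.04 and 0.53 ± 0.04 (adjusted p = 1.6e-05 and 2.06e-05). Other called genes of this list went both ways. Ccne2, Cdk2 and Skp2 fell by 0.66 ± 0.06, 0.26 ± 0.05 and 0.25 ± 0.06, and Myc, Cdk4 and Cdk6 rose by 0.55 ± 0.05, 0.30 ± 0.04 and 0.24 ± 0.07. Of 17 other chromatin assembly genes 3 were higher and 8 lower, with a median of -0.12 (2 higher, 5 lower and -0.06 with offsets). Casp8ap2 and Npat, genes of the histone locus body, fell by 0.81 ± 0.11 and 0.48 ± 0.07, and the remodeller gene Smarca5 fell by 0.42 ± 0.06.

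Genes of G2 and mitosis had 7 of 44 members higher and 16 lower (15.9% and 36.4%), with a median of -0.01. Their summed level was 5455, 5457 and 5988 CPM in PBS and 5298, 5127 and 5297 CPM in PDT, so PBS replicate 3 was the highest library, as it was among PBS libraries for the replication genes. With length and GC offsets 5 were higher and 14 lower, with a median of -0.02. Smc2, Bub1 and Kif11 fell by 0.65 ± 0.06, 0.48 ± 0.05 and 0.35 ± 0.05. Among those that rose, Cdc25b, Cdc20, Ccnb2 and Plk1 did so by 0.29 ± 0.04, 0.21 ± 0.04, 0.21 ± 0.05 and 0.17 ± 0.04. Mki67, a marker of cycling cells, was at 254, 233 and 313 CPM in PBS and 146, 142 and 235 CPM in PDT, where PDT replicate 3 overlapped PBS (-0.61 ± 0.18, adjusted p = 0.0242). Of 54 tested symbols of replication-dependent histones 1 was higher and 9 lower, with a median of -0.17. These are 1.85% and 16.7%, against 18.7% and 17.5% of all tested genes, so the share that fell was near that of all genes. H1f2 fell by 0.40 ± 0.05 from 56.0 ± 3.49 to 42.5 ± 1.59 CPM, and H1f3 and H2ac4, at under 4 CPM, fell by 1.35 ± 0.16 and 1.67 ± 0.29. Histone genes have near-identical copies, so their counts are uncertain.

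**Figure D5:**
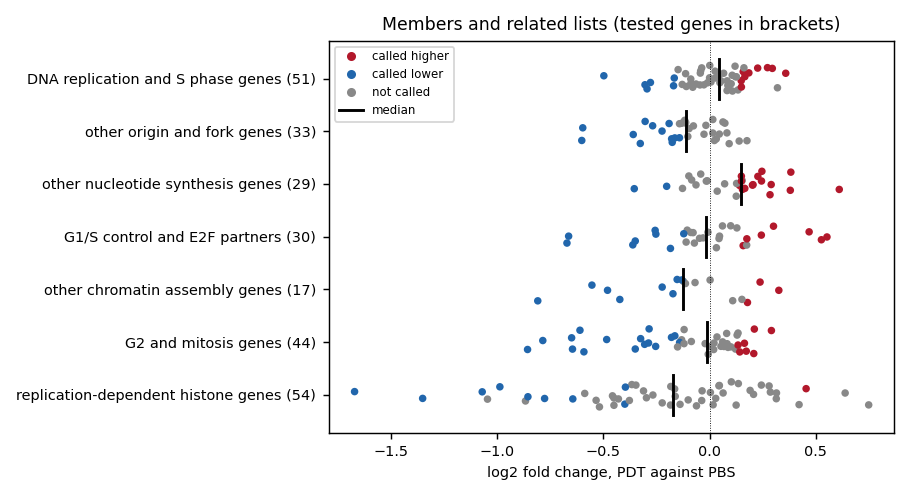
Log2 fold change, PDT against PBS, of the tested genes of each list (points, coloured by call) with the median (black bar). The replication and S phase genes lie between -0.50 and 0.36, the other origin and fork genes reach down to -0.60, and the other nucleotide synthesis genes have a median of 0.15.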

How the data were processed

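The deposited values were read counts per gene, made by the authors from rRNA-depleted, directional paired-end libraries of 6 samples. Per the submitters' processing notes, STAR 2.7.11b, cutadapt 4.6 and GRCm39 were used. The sources used here name no counting tool or strand setting, so overlapping antisense genes may share counts. Samples were grouped by the treatment label, 3 in each group. The labels call them biological replicates without describing separate cultures, so p-values cover only the spread among them, which may be technical. No 2 libraries agreed within sampling noise (lowest chi-square per degree of freedom 11.2).

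Genes passing filterByExpr were scaled by TMM and tested with edgeR 4.0.16 (quasi-likelihood, group only, R 4.3.3) at an adjusted p threshold of 0.05. Standard errors are the log2 fold change divided by the square root of F. CPM uses TMM-scaled library sizes. The common biological coefficient of variation was 10%. The procedure was also run on simulated data with a lower coefficient of variation, which does not show how it performs at 10%. Alternatives were other scalings and filters, DESeq2 1.42.0, limma-voom (limma 3.58.1), a replicate block, leaving out each library, and offsets from smooth terms in transcript length and GC content, known for 92.7% of tested genes from GENCODE M21. That annotation is on another build than the counts and was used for gene properties only. Promoters are from RefSeq on GRCm38.p6.

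The members and lists were chosen with earlier results of these data known. Every sample is given for the called members with the largest changes in each role and for a fixed set of genes. From each related list up to 3 called genes with the lowest adjusted p are named, besides Mki67. From the lists of G1/S control and of G2 and mitosis, other called genes are also named so that both directions appear.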

Additional observations from a re-analysis of the deposited data

How the results depend on the processing

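Against 15 called members, 9 higher and 6 lower, the alternatives other than leaving out a library called 13 to 23. With library size only, 23 members were called (45.1%, beside 38.6% of all tested genes), 19 of them higher. The stricter filter called 20 members (39.2%, beside 48.0%), 11 of them lower. With the length and GC offsets and with the replicate block with these offsets 11 were also lower. In each of these 2 fits 17 were called (33.3%, beside 33.5% and 31.8%). Leaving out 1 library gave 10 to 19 called members, 5 to 13 higher and 4 to 6 lower, and 14 to 28 related genes higher, with the lowest counts of higher genes without PDT replicate 1. Of all tested genes 12.8% to 19.2% were then higher and 13.5% to 18.9% lower. The median level per kb was 22.5 CPM by transcript length and 42.6 by coding length. The cause of these shifts was not tested. The replicate numbers did not pair the samples (correlations of same-numbered deviations of -0.012, 0.014 and 0.005), and a replicate block called 14 members, 8 higher and 6 lower (27.5%, beside 34.4% of all tested genes).

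No called member changed direction under any of the 15 alternatives. Changes of sign occurred in 17 members that were not called, all near 0. They were Mcm6 0.011, Gins3 0.022, Prim1 0.0047, Pcna 0.048, Rpa1 0.038, Rpa3 0.0060 and Rrm1 0.0026 with library size only. They were Prim2 -0.0087 and Fen1 -0.0030 with RLE scaling, -0.0089 and -0.0030 with DESeq2, and -0.020 and -0.014 with the stricter filter. Prim2 was at -0.0032 with limma-voom and -0.0013 with the replicate block, and without a filter Pcna was at 0.013 and Rpa1 at 0.0028. With length and GC offsets they were Gmnn -0.091, Gins4 -0.045, Prim2 -0.056, Rpa1 0.0100, Rpa3 0.025, Fen1 -0.091, Lig1 -0.0055, Rrm1 0.036 and Dut -0.039. With the replicate block added these were -0.092, -0.043, -0.057, 0.010, 0.024, -0.090, -0.0058, 0.034 and -0.039. Leaving out 1 library gave Orc1 -0.067 to 0.086, Gins2 -0.0034 to 0.10, Gins3 -0.061 to 0.024, Prim2 -0.054 to 0.033, Pole2 -0.011 to 0.15, Pcna -0.044 to 0.046, Rpa1 -0.035 to 0.022, Rpa3 -0.11 to 0.010, Fen1 -0.062 to 0.054 and Tyms -0.023 to 0.075.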
